A study of Homo sapiens with 12 samples.

Results

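The PAX genes encode a family of 9 transcription factors, PAX1 to PAX9, that bind DNA through a paired domain. Their rows were taken by gene name from a table of read counts for 57169 genes in 12 tumour libraries, 6 with RING1B knock-down and 6 controls. All 9 names were found, 8 had a count in at least 1 library, and 6 passed the low-count filter that 16519 genes passed. The tumours were grown as xenografts from SK-ES1, a cell line established from Ewing sarcoma, a cancer of bone and soft tissue driven by the fusion transcription factor EWSR1-FLI1. The comparison asked what happens to the tumour's transcripts when RING1B, the H2A ubiquitin ligase of Polycomb repressive complex 1 encoded by RNF2, is reduced. Knock-down and control tumours shared the cell line and the tissue label, and the controls were labelled wild type. The silencing construct, any control construct, the host animal, its age and whether each library came from its own animal are not stated by the labels. The p-values therefore reflect variation between libraries, which may be technical.

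PAX factors set the identity of cells in the embryo. PAX3 and PAX7 act in neural crest and muscle progenitors, PAX1 and PAX9 in the sclerotome that forms vertebrae and in pharyngeal endoderm, PAX2, PAX5 and PAX8 in kidney, midbrain, B cells and thyroid, and PAX4 and PAX6 in eye, brain and pancreatic islets. Many PAX loci carry Polycomb marks in cells that do not use them, and PAX7 is used as a marker of Ewing sarcoma in diagnosis.

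Sequence around the start of 3 PAX genes is shown because these genes span the levels found below: PAX7 had the highest level, PAX5 was counted almost only in 1 library, and PAX4 had no count. Each stretch holds 300 bases, from 250 bases before to 50 bases after the start, on the gene's own strand (RefSeq, GRCh38.p14), with CpG dinucleotides, the sites at which mammalian DNA is methylated, in capitals. The PAX7 stretch is chr1:18630596-18630895 on the plus strand, the PAX5 stretch chr9:37034219-37034518 on the minus strand and the PAX4 stretch chr7:127618093-127618392 on the minus strand.
PAX7: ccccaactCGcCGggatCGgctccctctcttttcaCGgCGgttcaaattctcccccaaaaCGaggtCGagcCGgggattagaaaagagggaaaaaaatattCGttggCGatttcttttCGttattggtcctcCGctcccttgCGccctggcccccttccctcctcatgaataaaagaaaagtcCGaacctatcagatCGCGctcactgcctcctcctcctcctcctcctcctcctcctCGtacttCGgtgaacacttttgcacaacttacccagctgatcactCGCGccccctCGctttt
PAX5: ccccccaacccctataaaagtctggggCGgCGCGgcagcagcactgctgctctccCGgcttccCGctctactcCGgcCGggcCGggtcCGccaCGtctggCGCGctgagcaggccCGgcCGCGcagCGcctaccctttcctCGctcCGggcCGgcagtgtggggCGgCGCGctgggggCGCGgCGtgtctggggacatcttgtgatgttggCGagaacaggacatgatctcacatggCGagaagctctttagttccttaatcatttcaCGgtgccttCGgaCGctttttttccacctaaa
PAX4: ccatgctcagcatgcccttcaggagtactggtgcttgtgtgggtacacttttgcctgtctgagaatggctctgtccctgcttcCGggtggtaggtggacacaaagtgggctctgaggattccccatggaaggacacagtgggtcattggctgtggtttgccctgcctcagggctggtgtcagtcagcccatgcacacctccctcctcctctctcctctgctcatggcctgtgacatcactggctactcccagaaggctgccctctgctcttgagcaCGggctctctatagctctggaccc
The CpG sites numbered 21 in the PAX7 stretch, 30 in that of PAX5 and 2 in that of PAX4, against a median of 14 over the 35116 stretches of the same length in the RefSeq table. The table held 8 of the 9 PAX genes. It listed 2 starts each for PAX2, PAX4 and PAX9 and 9 for PAX6. For these genes only the start nearest to the annotated gene start of the counts was used. PAX6 had 24 CpG sites, PAX3 had 21, PAX9 had 19, PAX2 had 14 and PAX8 had 13. Among the starts used, the CpG-poor one of PAX4 thus stood apart from the other 7. Of all stretches, 18.2% held 2 or fewer CpG sites and 77.6% held fewer than PAX5. The CpG count did not order the genes by their level: PAX5 had the most sites and almost no counts in 11 libraries, and PAX8, with 13 sites, was counted in every library. The tetramer GGAA, the core of sites bound by ETS factors such as FLI1, was found 2 times in the PAX7 stretch, counting both strands, and 95.5% of all stretches held it. Its direct tandem repeat GGAAGGAA was in none of the 8 PAX stretches and in 3.67% of all stretches.

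Libraries held 23859184 to 26678325 counts, and 3 counts, the limit that a count of 0 allows, corresponded to 0.112 to 0.126 CPM, the unit of counts scaled to a common library total. Mitochondrially encoded genes took 4.65% to 14.4% of the counts, with the highest share in control 6. Knockdown 4 stood apart from the other libraries: 13 tested genes were at least 8-fold above every other library in it, and in no other library was there such a gene. Among genes picked after their values were seen, KDM5C, an X-linked histone demethylase, had 60.2 CPM in knockdown 4 and 0.692 to 3.38 CPM in the other 11 libraries, and FN1, which encodes fibronectin, had 1810 CPM against 20.8 to 105 CPM. Results are therefore given with and without knockdown 4 where it bears on them. The Ewing sarcoma marker list (20 genes, among them NKX2-2, NR0B1 and STEAP1) summed to 3780 to 4490 CPM in knock-down libraries and 3500 to 4090 CPM in control libraries. JAK1 (means of 1130 CPM in knock-down and 1140 CPM in control libraries) and CCND1 (1120 and 1090 CPM) gave the largest parts. NR0B1 had 132 and 145 CPM, STEAP1 161 and 137 CPM, and NKX2-2 36.2 and 27.9 CPM, so the sum mainly follows other genes. CD99, a diagnostic surface protein encoded in the pseudoautosomal region, was listed at 0 in all 12 libraries. Of the 19 tested members of that list, 15 were higher in knock-down tumours and 2 were called, where edgeR called 0.297% of all tested genes. These were CCK at 51.9 ± 34.3 CPM in knock-down and 10.8 ± 2.73 CPM in control libraries and NPY1R at 73.3 ± 13.1 CPM in knock-down and 41.3 ± 5.54 CPM in control libraries (SD, n = 6 each; edgeR adjusted p = 0.0113 and 0.0151).

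The targeted gene gives a check of the labels. RNF2 had 12.4 to 23.4 CPM in knock-down libraries, with a median of 18.4 CPM, against 37.5 to 57.9 CPM in control libraries, with a median of 49.2 CPM. The groups did not overlap, and knockdown 3 and knockdown 4 were lowest. RNF2 fell by 1.43 on the log2 scale (SE 0.174; edgeR quasi-likelihood test, adjusted p = 0.00347), so 0.372 of the control level remained. Without knockdown 4 the log2 fold change was -1.35 (adjusted p = 0.00395). RING1, the gene of the paralogous ligase RING1A, added for its role, had 58.9 ± 2.1 CPM in knock-down and 60.5 ± 6.68 CPM in control libraries (SD, n = 6 each; log2 fold change -0.04, edgeR adjusted p = 0.896).

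No PAX gene passed the test. Of the 6 tested PAX genes, 0 were called by edgeR at an adjusted p below 0.05, where 0.297% of all tested genes were called (49 of 16519, 29 higher and 20 lower). DESeq2 called 0 of the 6 against 2.22% of the genes it tested, limma-voom called 0 against 0.339%, and 0 of the 6 had an unadjusted edgeR p below 0.05, against 12.7% of all tested genes. The CPM ranges of the groups overlapped for each PAX gene, while 1.22% of tested genes had groups that did not overlap. Intervals below show which sizes of change these libraries leave possible. The RNA is from whole tumours, so fewer cells carrying a transcript and less of it per cell cannot be told apart.

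**Figure D1:**
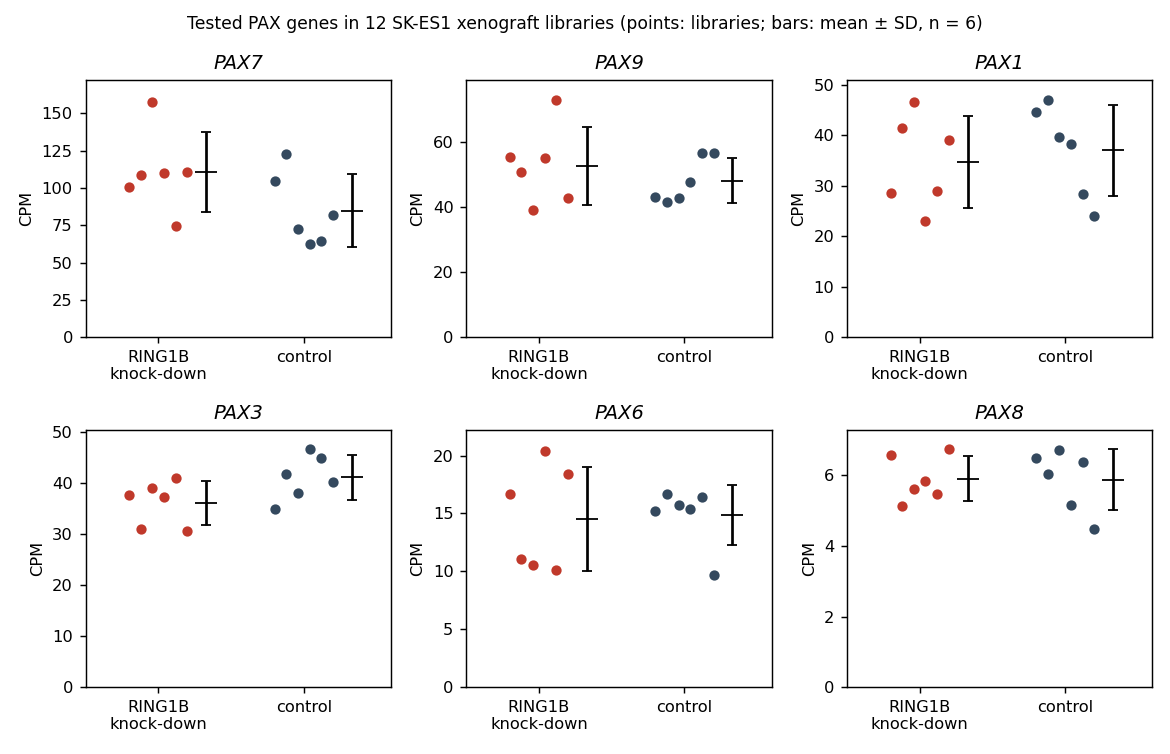
Level of the 6 tested PAX genes in CPM (vertical axis, from 0) in RING1B knock-down libraries (red, left) and control libraries (dark blue, right); each point is 1 library and the black bars give the mean ± SD of 6 libraries. The groups overlap in every panel, and PAX7 ranges from 74.8 to 158 CPM in knock-down libraries and from 62.3 to 123 CPM in control libraries.

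PAX7, a factor of muscle satellite cells and neural crest, was the most abundant PAX transcript. It had 101, 109, 158, 110, 74.8 and 111 CPM in knockdown 1 to 6, against 105, 123, 72.3, 62.3, 64.2 and 82 CPM in control 1 to 6. Knockdown 3 was highest of all 12, 5 of the 6 knock-down libraries lay above 4 of the controls, and control 1 and control 2 lay within the knock-down range. The means were 111 ± 26.8 CPM in knock-down and 84.7 ± 24.3 CPM in control libraries (SD, n = 6 each), a log2 fold change of 0.38 (SE 0.19; 95% interval -0.02 to 0.79) that did not pass the test (edgeR adjusted p = 0.42; exact two-sided permutation p = 0.104). The interval runs from 0.986-fold to 1.73-fold. The difference did not rest on knockdown 4, since without it the log2 fold change was 0.39, but it ranged from 0.24 without knockdown 3 to 0.51 without control 2. The exact permutation p was 0.0303 without control 2 and 0.0411 without knockdown 5. The unadjusted edgeR p, 0.0608 with all libraries, fell below 0.05 when control 2 (0.0141), knockdown 5 (0.02) or control 1 (0.044) was left out. Without each other library it was higher than 0.0608, up to 0.203 without knockdown 3. The edgeR adjusted p of PAX7 lay between 0.327 and 0.665 over all alternatives.

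PAX3, the paralogue of PAX7 and the fusion partner of FOXO1 in rhabdomyosarcoma, had a median of 37.4 CPM (30.7 to 40.9) in knock-down libraries and of 41 CPM (34.9 to 46.7) in control libraries. The groups overlapped, with 3 of 6 controls above every knock-down library. Its log2 fold change was -0.19 (SE 0.107; 95% interval -0.41 to 0.04; edgeR adjusted p = 0.49; exact permutation p = 0.0823), and the interval of the ratio runs from 0.75-fold to 1.03-fold. Without control 1 the exact permutation p was 0.0346, and without each other library it lay between 0.0519 and 0.162.

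PAX9, a factor of sclerotome, teeth and pharyngeal pouches, had a median of 52.8 CPM (38.9 to 72.8) in knock-down libraries and of 45.4 CPM (41.4 to 56.6) in control libraries. Knockdown 5 was highest and knockdown 3 lowest, so the knock-down libraries spanned the whole control range. The log2 fold change was 0.13 (SE 0.146; 95% interval -0.18 to 0.44; edgeR adjusted p = 0.752). PAX1, its paralogue with overlapping roles in the vertebral column, had a median of 34 CPM (23 to 46.6) in knock-down libraries and of 39 CPM (23.9 to 46.9) in control libraries. Both groups covered nearly the same range, and the log2 fold change was -0.09 (SE 0.194; 95% interval -0.51 to 0.32; edgeR adjusted p = 0.879). Knockdown 4 held the lowest PAX1 value, 23 CPM, and without it the PAX1 log2 fold change was -0.0005.

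PAX6, the regulator of eye and islet development, was uneven among the knock-down libraries, with 16.7, 11.1, 10.6, 20.4, 10.1 and 18.4 CPM in knockdown 1 to 6. In control libraries it had 15.2, 16.7, 15.7, 15.4, 16.4 and 9.67 CPM, so control 6 alone lay as low as knockdown 2, 3 and 5. The log2 fold change was -0.03 (SE 0.197; 95% interval -0.45 to 0.39; edgeR adjusted p = 0.97), and it was -0.15 without knockdown 4, 0.06 without knockdown 5 and 0.04 when the title letter entered the fit. PAX8, a factor of thyroid and kidney, was low and even, at 5.89 ± 0.637 CPM in knock-down and 5.87 ± 0.87 CPM in control libraries (SD, n = 6 each; log2 fold change 0.01, 95% interval -0.31 to 0.32, edgeR adjusted p = 0.993). For both genes the sign of the difference turned between alternatives, and the intervals of the ratio run from 0.733-fold to 1.31-fold for PAX6 and from 0.806-fold to 1.25-fold for PAX8.

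The remaining 3 genes did not pass the low-count filter. PAX5, the master regulator of B cell identity, had 244 counts in knockdown 4 (10.4 CPM), and the other 11 libraries had 0 to 6 counts each, 19 in all. The highest of them was control 2 with 6 counts (0.228 CPM), and 3 libraries, knockdown 3, control 3 and control 4, had 0 counts. Without a filter on low counts the fitted log2 fold change was 4.65, with an edgeR adjusted p of 0.515, and it rested on knockdown 4. PAX2, which acts in the kidney and the optic nerve, had 5 counts in all: 1, 1 and 2 in knockdown 3, 4 and 5, against 1 in control 3 and 0 in the other controls. PAX4, a factor of islet beta cells, had 0 counts in all 12 libraries, which allows at most 0.112 to 0.126 CPM per library, for counting error only. PAX4 and PAX2 thus stayed at or under 3 counts per library in both groups.

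**Figure D2:**
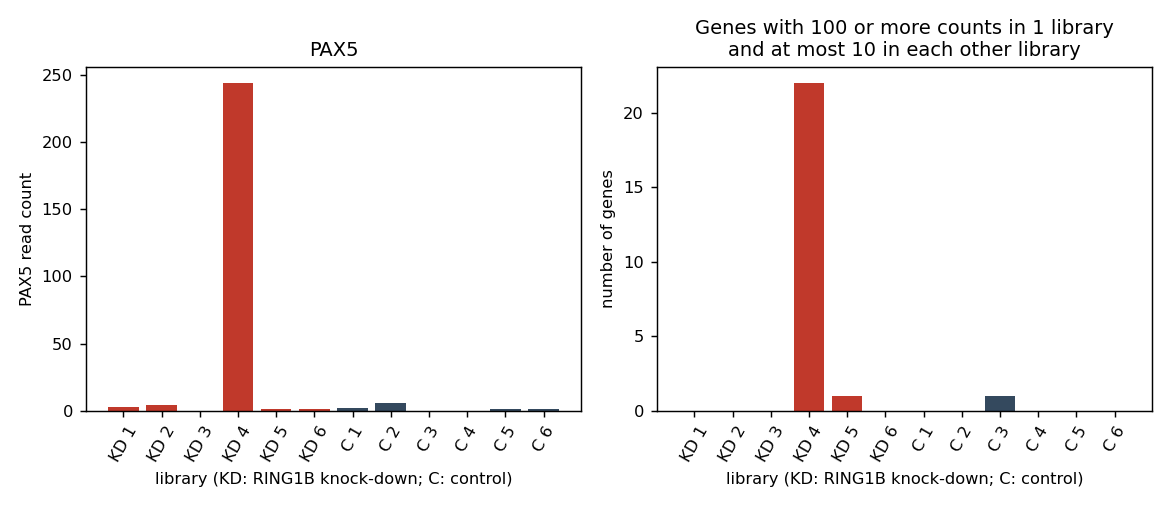
PAX5 read counts (left panel) and the number of genes with at least 100 counts in that library and at most 10 in each other library (right panel), for knock-down (red, KD) and control (dark blue, C) libraries; bars start at 0. Knockdown 4 holds 244 PAX5 counts and 22 such genes, and every other library holds at most 6 counts and 1 gene.

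PAX5 was 1 of 22 genes that reached at least 100 counts in knockdown 4 and at most 10 in every other library. Knockdown 5 and control 3 had 1 such gene each and the other 9 libraries none. The 22 included SOX1 (194 counts, at most 1 elsewhere), SALL4 (131 and 8) and BARX2 (272 and 6), all developmental transcription factors, and IL1A (344 and 5) and IL7R (190 and 3); these were picked from the 22 after their values were seen. Some members of the PAX lists moved the same way and were also noticed afterwards. Among them OTX2, a forebrain and eye factor, had 664 counts in knockdown 4 and at most 28 elsewhere, and WT1, a kidney factor, 216 and at most 11. ETS1 of the neural crest list had 431 and at most 37, and SALL1 of the kidney list 229 and at most 29. Other list members were lowest in knockdown 4, such as DLK1 (74 counts) and LEF1 (55 counts). Markers of B cells were low. CD22 and MS4A1 were at 0 in all 12 libraries and BLK had at most 1 count, while CD79B had 9 counts in knockdown 4, its highest, and at most 7 elsewhere. In knockdown 4 the 6 B cell markers summed to 5.37 CPM, within the 3.67 to 6.55 CPM of the knock-down libraries and against 3.03 to 4.93 CPM in the controls. CD79A made up most of that sum, with 5.08 ± 0.992 CPM in knock-down and 3.88 ± 0.829 CPM in control libraries (SD, n = 6 each; edgeR adjusted p = 0.419). The summed markers of leukocytes, of fibroblasts and pericytes and of endothelium were highest in knockdown 4, at 33.8, 1610 and 15.8 CPM. Single members differed in direction. The collagen gene COL1A1 had 15460 counts in knockdown 4, the highest knock-down value. The fibroblast markers LUM (149 counts) and FAP (173) and the endothelial marker EMCN (126) were lowest there of all 12 libraries. The part of such cells in the PAX5 counts of knockdown 4 was not tested. The lowest and highest leukocyte sums were 7.57 and 33.8 CPM in knock-down and 6.04 and 25.6 CPM in control libraries, and for fibroblasts and pericytes 423 and 1610 CPM and 574 and 1590 CPM. Endothelial sums were 8.34 to 15.8 CPM in knock-down and 10.6 to 14.9 CPM in control libraries.

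Levels were compared between PAX genes per length, in TPM, counts divided by length and scaled to a common total. The length was the deposited exon length, which joins all annotated exons of a gene. No TMM factor entered TPM, so it serves to compare genes rather than libraries or groups. In control 6, for example, PAX9 had 56.6 CPM, as high as any control, but 22.9 TPM, the lowest of the controls. PAX7 had 56.6 ± 18.2 TPM in knock-down and 44.4 ± 15.6 TPM in control libraries (SD, n = 6 each), PAX9 27.3 ± 4.06 and 25.9 ± 2.99 TPM, PAX1 19 ± 6.2 and 21.2 ± 6.98 TPM, and PAX3 14.4 ± 2.05 and 17 ± 3.04 TPM. PAX8 had 2.55 ± 0.469 TPM in knock-down and 2.63 ± 0.607 TPM in control libraries, and PAX6 2.24 ± 0.745 and 2.38 ± 0.625 TPM. The family thus fell into 4 genes above 9 TPM, a pair near 2 TPM, and 3 genes at or near 0 outside knockdown 4, where PAX5 had 3.35 TPM. The step from PAX3 to PAX8 was the only one at which the ranges of neighbours over the 12 libraries did not overlap. PAX7 exceeded PAX9 in 11 of 12 libraries, PAX9 exceeded PAX1 in 9 and PAX1 exceeded PAX3 in 8, so the order among PAX9, PAX1 and PAX3 varied between libraries. PAX8 exceeded PAX6 in 10 of 12. That order depends on the exon length used, 20812 bases for PAX6 and 7400 for PAX8. In CPM, which is not divided by length, PAX6 was the higher of the 2. Its means were 14.5 CPM in knock-down and 14.8 CPM in control libraries, against 5.89 and 5.87 CPM for PAX8. PAX7 made up 45.2% of the summed PAX TPM in knock-down libraries and 38.5% in control libraries on average, and between 31.2% and 54.8% in single libraries. It was not among the most abundant transcripts of the tumours, since 3190 genes had a higher mean TPM.

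**Figure D3:**
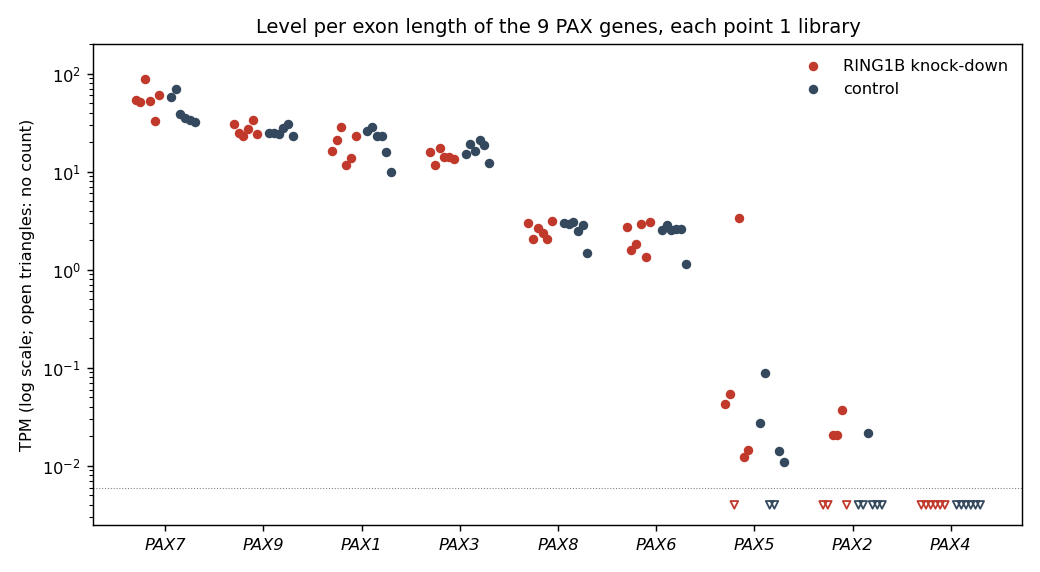
Level per exon length of the 9 PAX genes in TPM (vertical axis, log scale) in knock-down libraries (red, left in each pair) and control libraries (dark blue, right); each point is 1 library and open triangles mark libraries with no count. PAX7 is highest, PAX8 and PAX6 lie near 2 TPM, and PAX5 reaches 3.35 TPM in 1 knock-down library while the other 11 lie below 0.1 TPM.

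Libraries of the same group differed more in some PAX genes than in others. The SD of log2 CPM within groups was 0.387 for PAX1, 0.377 for PAX6 and 0.37 for PAX7, against 0.165 for PAX3 and 0.192 for PAX8. Compared with the 500 tested genes nearest in level, PAX1 varied more than 89.8% and PAX7 more than 89.2%, while PAX8 varied more than 8% only. The highest library exceeded the lowest 2.53-fold for PAX7 (knockdown 3 and control 4) and 1.5-fold for PAX8 (knockdown 6 and control 6). Spread between libraries within a group therefore exceeded the difference between group means for PAX1, PAX6, PAX8 and PAX9. Libraries sharing a title number could differ as much: PAX9 was 72.8 CPM in knockdown 5 and 42.7 CPM in knockdown 6, and PAX1 was 46.6 CPM in knockdown 3 and 23 CPM in knockdown 4, each pair under 1 number.

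PAX1 and PAX9 varied in opposite directions. Over the 12 libraries, after each group mean was subtracted, their log2 CPM had a Pearson r of -0.79 (permutation p = 0.0045, adjusted over the 15 pairs of tested PAX genes 0.055) and a Spearman rho of -0.83 (permutation p = 0.0026, adjusted 0.039). It was -0.85 without the 2 libraries farthest from the median of PAX1, -0.84 without knockdown 4, -0.71 within knock-down and -0.96 within control libraries. Titles carry the letter D or E, whose meaning the labels do not give, and within the letters r was -0.86 and -0.91. PAX7 and PAX9 also varied in opposite directions (r = -0.74, permutation p = 0.0094, adjusted 0.055; rho = -0.72, permutation p = 0.013, adjusted 0.097), with r = -0.61 without the 2 libraries farthest from the median of PAX7. PAX6 and PAX8 varied together (r = 0.71, permutation p = 0.011, adjusted 0.055; rho = 0.64, permutation p = 0.032, adjusted 0.16), with r = 0.52 without the 2 farthest. Only the rank correlation of PAX1 and PAX9 passed 0.05 after adjustment.

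**Figure D4:**
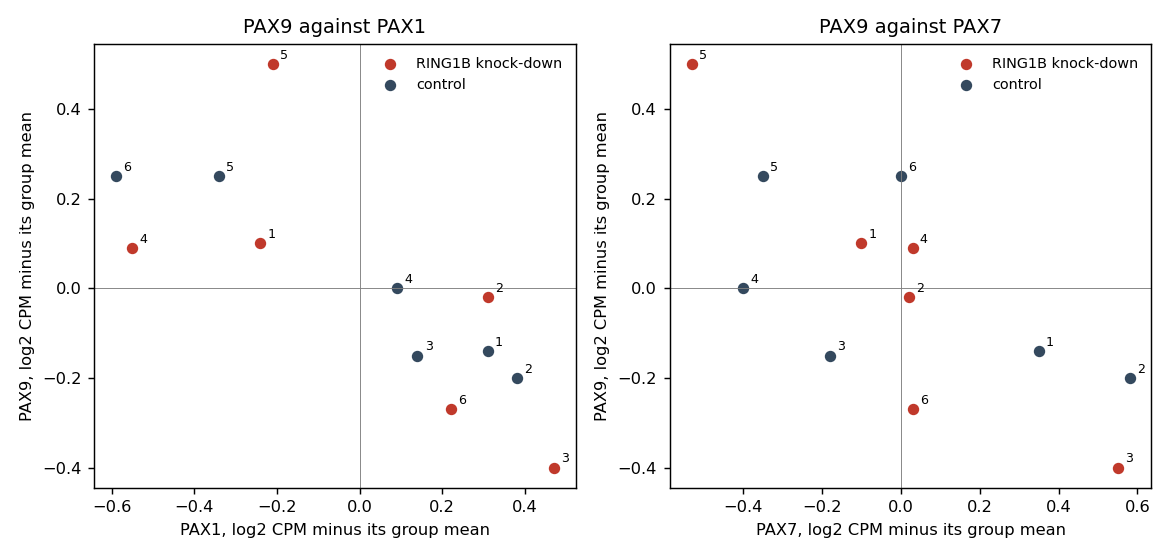
PAX9 against PAX1 (left) and against PAX7 (right), each as log2 CPM minus its group mean; points are the 12 libraries, numbered by replicate, knock-down in red and control in dark blue. PAX9 falls as PAX1 rises in both groups (r = -0.79), with knockdown 3 at the lower right, and less tightly as PAX7 rises (r = -0.74), with knockdown 5 at the upper left.

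For PAX1, PAX9, PAX6 and PAX8 these variations lay along the main axes of the whole table. Principal component 1 of the group-centred values held 39% of the variance, and its absolute correlation over the 12 libraries was 0.94 with PAX1 and 0.73 with PAX9. Component 2 held 22.7%, with absolute correlations of 0.92 for PAX6 and 0.66 for PAX8. PAX7 had lower values, 0.48 with component 1 and 0.26 with component 2, and PAX3 had 0.3 and 0.065. The genes most like each PAX gene among 16518 others were taken by Pearson r of the group-centred log2 CPM, as a description. For PAX9 they were EBF1 (r = 0.97), a factor of B cells and mesenchyme, PROCR, AP001324.1, OGN and CBFA2T3 (r = 0.94). For PAX1 they were PARP4 (r = 0.98), TBC1D5, ASH2L, a subunit of the KMT2 methyltransferase complexes, SYNE1 and TERF2 (r = 0.95). PAX6 was followed by RNF185 (r = 0.97), FANCE, RNF121, ARHGAP1 and ST6GALNAC4, and PAX8 by ZNF496 (r = 0.94), AC091057.6, TUB, SNORD46 and XRRA1. PAX7 was most like AC092117.1 (r = 0.91), XPNPEP1, PADI2, AMER2 and CACNG6, and PAX3, at lower values, was most like AC010536.1 (r = 0.85), CAVIN4, CSRNP2, RNF216P1 and MIR6807. No other PAX gene was among these 30 genes.

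Genes beside the PAX loci were read in the same fit, with coordinates on hg38 from GENCODE release 29. They were the 11 genes that overlap a PAX gene and the nearest tested gene on either side of each, 29 in all, of which 23 were tested, 17 of them with a positive log2 fold change. By edgeR 0 of the 23 were called, against 0.297% of all tested genes, and 3 had an unadjusted p below 0.05, against 12.7%. limma-voom also called 0, against 0.339%, and DESeq2 called AL132857.2, against 2.22% of the genes it tested. AL132857.2 is a bidirectional promoter long non-coding RNA on chromosome 14 (36320753 to 36656163, plus strand) that ends 1405 bases before the annotated start of PAX9. It had 2.89, 3.13, 1.86, 2.73, 2.8 and 2.6 CPM in knockdown 1 to 6, against 1.59, 1.44, 0.797, 1.51, 1.39 and 1.3 CPM in control 1 to 6. Every knock-down library lay above every control library, where 1.22% of all tested genes had groups that did not overlap. Its log2 fold change was 0.99 (SE 0.214; 95% interval 0.53 to 1.45), which edgeR did not call (adjusted p = 0.0673; exact permutation p = 0.00216, the smallest that 6 against 6 libraries allow) and DESeq2 did (adjusted p = 0.00209). With the title number as a random effect it was called (adjusted p = 0.0465). That fit had a consensus correlation of -0.125 and called 91 genes, against 49 by edgeR. It was not called with counts summed by title number (0.184), with limma-voom (0.0698) or with the title letter in the fit (0.133). Without each library in turn edgeR did not call it either (adjusted p = 0.0731 to 0.164). PAX9 itself, with a log2 fold change of 0.13, did not show that separation, and neither did AL079303.1, the antisense gene that overlaps the PAX9 start (log2 fold change 0.12, edgeR adjusted p = 0.828). The other 2 with a low unadjusted p were ALDH4A1, the nearest tested gene past the 3′ end of PAX7, 122564 bases away, with a log2 fold change of 0.37 (edgeR adjusted p = 0.241), and ELP4, an Elongator subunit gene that overlaps PAX6, with 0.35 (edgeR adjusted p = 0.298).

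**Figure D5:**
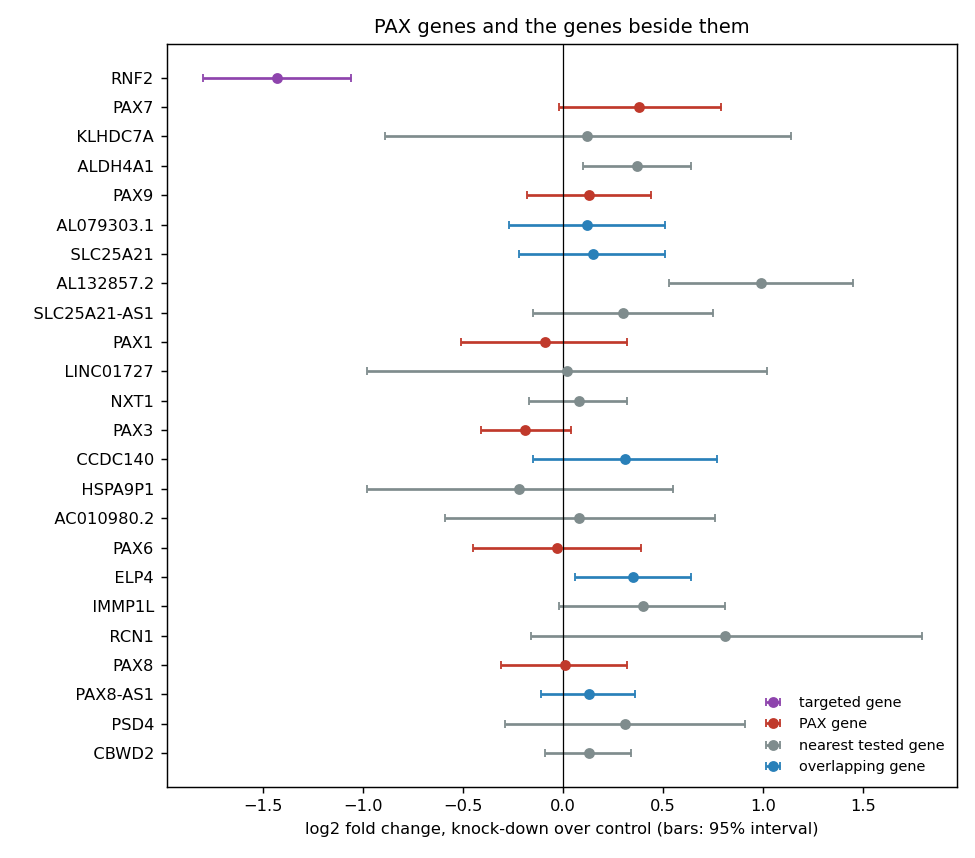
Log2 fold change, knock-down over control (horizontal axis; bars are 95% intervals), of RNF2, the 6 tested PAX genes and, under each of them, its tested neighbours and overlapping genes. RNF2 lies at -1.43, the interval of every PAX gene includes 0, and AL132857.2 beside PAX9 lies at 0.99.

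Overlap limits some of these counts. ELP4 shares 5241 exon bases with PAX6, 25.2% of the PAX6 exon length, PAX8-AS1 shares 685 bases with PAX8 (9.26%) and SLC25A21 shares 481 bases with PAX9 (7.97%). These partners lie on the opposite strand, and no source used here states the strand setting of the counting. Whether reads from the shared bases went to the PAX gene, to its partner or to neither is therefore not known. PAX8-AS1 had 3.53 to 5.15 times as many counts as PAX8. Its log2 fold change was 0.13 (edgeR adjusted p = 0.675) and that of SLC25A21 0.15 (edgeR adjusted p = 0.758).

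Partner proteins and genes of the programmes that PAX factors act in were taken from 7 lists. Across all tested genes the median log2 fold change was 0.01, and 12.7% had an unadjusted edgeR p below 0.05. edgeR called 0.297%, DESeq2 2.22% and limma-voom 0.339% of the genes each tested. The counts of each list below are read beside these shares. Among 20 partners and cofactors, including the KMT2 complex subunits recruited through PAXIP1, all 20 were tested, 8 were higher and 12 lower, edgeR called 0, DESeq2 and limma-voom called 0, 3 had an unadjusted p below 0.05, and the median was -0.03. KMT2C, a histone H3K4 methyltransferase, had the smallest p, at 61.9 ± 14.7 CPM in knock-down and 83.5 ± 20.5 CPM in control libraries (SD, n = 6 each; log2 fold change -0.43, edgeR adjusted p = 0.326). The co-repressors TLE1 and TLE2 differed by 0.57 and 0.44 on the log2 scale (adjusted p = 0.331 and 0.353 by edgeR), and PAGR1, a partner of PAXIP1, by -0.2 (0.532).

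The myogenic factors downstream of PAX3 and PAX7 were at or near 0. MYF5 had 0 counts in all 12 libraries, MYF6 at most 1, MYOG at most 2 in knock-down and 3 in control libraries, and MYOD1 at most 4 in knock-down and 7 in control libraries. PAX7 itself had 1792 to 4334 counts in knock-down and 1610 to 3242 counts in control libraries, so its transcripts were present without those of the muscle-determining factors. The skeletal muscle and satellite cell marker list summed to 2.04 to 17.8 CPM in knock-down and 3.11 to 26.8 CPM in control libraries, low beside PAX7. Of 26 listed myogenic genes 17 were tested, 9 were higher and 8 lower, edgeR, DESeq2 and limma-voom called 0, 2 had an unadjusted p below 0.05, and the median log2 fold change was 0.05. MEOX1, a somite homeobox gene that is also on the sclerotome list, had 3.76 to 5.37 CPM in knock-down and 1.08 to 3.68 CPM in control libraries. These groups did not overlap, as for 1.22% of all tested genes, with control 1, 2 and 3 lowest. The log2 fold change of 0.93 was not called (edgeR adjusted p = 0.223). CDH15, a cadherin of satellite cells, had 1.11 (edgeR adjusted p = 0.385), FGFR4 0.34 (0.409) and the receptor MET -0.37 (0.418).

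In the neural crest list edgeR called 1 of 15 tested genes, against 0.297% of all tested genes, and 7 of the 15 had an unadjusted p below 0.05, against 12.7%. TWIST1, a bHLH factor of mesenchyme and cranial neural crest, had 105, 123, 109, 68.1, 106 and 52.7 CPM in knockdown 1 to 6, against 45.1, 39.2, 37.8, 55.8, 43.4 and 61.4 CPM in control 1 to 6. Knockdown 6 lay below control 4 and control 6, and the other 5 knock-down libraries lay above all controls. TWIST1 rose 1.99-fold (log2 fold change 1, SE 0.194; edgeR adjusted p = 0.045). That call was lost without 9 of the 12 libraries in turn (adjusted p = 0.0805 to 0.145), when the title letter entered the fit (0.109), with limma-voom (0.0603) and with counts added up by title number (0.0663). TFAP2B (23.6 ± 12.3 CPM in knock-down and 8.98 ± 1.9 CPM in control libraries), SNAI2 (25.8 ± 6.87 and 15.1 ± 2.82 CPM) and MSX2 (15.5 ± 3.78 and 9.08 ± 1.94 CPM; SD, n = 6 each) were not called with all libraries (edgeR adjusted p = 0.0526, 0.0951 and 0.0999). Without knockdown 4 edgeR called all 4 (adjusted p = 0.0167 to 0.0485). That fit also called more genes over the whole table, 79 against 49 with all libraries. DESeq2 called 5 with all libraries, these 4 and SNAI1, against 2.22% of the genes it tested, and limma-voom called 0. Of the 15 tested genes 9 were higher and 6 lower, with a median log2 fold change of 0.41 that was 0.06 without knockdown 4. SOX10, the defining factor of migrating neural crest and its glial and melanocyte lines, had 0 counts in knock-down libraries and at most 1 in control libraries.

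In the sclerotome list of PAX1 and PAX9, 13 of 18 genes were tested, 8 were higher and 5 lower, edgeR, DESeq2 and limma-voom called 0, 4 had an unadjusted p below 0.05, and the median log2 fold change was 0.11. They included MEOX1, MSX1, a homeobox gene, with a log2 fold change of 0.59 (edgeR adjusted p = 0.319), and TBX18, a somite boundary factor, with -0.25 (0.38). MSX1 had 88.8 ± 32.9 CPM in knock-down and 59 ± 14.1 CPM in control libraries (SD, n = 6 each).

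In the kidney and thyroid list of PAX2 and PAX8, edgeR called 1 of 10 tested genes, against 0.297% of all tested genes. Of the 10, 3 had an unadjusted p below 0.05, against 12.7%. The called gene was SIX2, which maintains nephron progenitors. It had 11.1, 14.6, 15.3, 15.2, 18.5 and 10.8 CPM in knockdown 1 to 6, against 5, 3.45, 4.51, 8.33, 5.45 and 6.53 CPM in control 1 to 6. The groups did not overlap, as for 1.22% of all tested genes, and SIX2 rose 2.57-fold (log2 fold change 1.36, SE 0.206; edgeR adjusted p = 0.0113). It stayed past the threshold without each library in turn (adjusted p = 0.0097 to 0.0483), and not when libraries sharing a title number were summed (0.0564) or at a threshold of 0.01. Of 23 listed genes 10 were tested, 8 were higher and 2 lower, and the median log2 fold change was 0.42, or 0.23 without knockdown 4. GDNF, a ligand of ureteric budding, had 0.43 (edgeR adjusted p = 0.284), the thyroid factor FOXE1 0.64 (0.289) and GATA3 0.31 (0.432). SALL1, also of this list, had 229 counts in knockdown 4 and at most 29 elsewhere.

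In the eye, brain and islet list of PAX4 and PAX6, NKX6-1 and NKX2-2 did not pass the test. Of 25 listed genes 14 were tested, 9 were higher and 5 lower, with a median log2 fold change of 0.15. NKX6-1, a homeobox gene of islets and motor neuron progenitors, had 48.4 ± 7.01 CPM in knock-down and 37.9 ± 3.82 CPM in control libraries (log2 fold change 0.36, edgeR adjusted p = 0.217), and NKX2-2, an EWSR1-FLI1 target in Ewing sarcoma, had 36.2 ± 8.29 and 27.9 ± 4.19 CPM (SD, n = 6 each; log2 fold change 0.37, edgeR adjusted p = 0.309). The islet hormone gene INS and the lens gene CRYAA had 0 counts in all 12 libraries.

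The B cell list of PAX5 had 6 of 20 genes tested, 3 higher and 3 lower, with a median log2 fold change of 0.03, and edgeR and limma-voom called 0, with 1 unadjusted p below 0.05. That gene was LEF1, a factor of Wnt signalling, at 5.9 ± 2.15 CPM in knock-down and 11.6 ± 2.58 CPM in control libraries (SD, n = 6 each; log2 fold change -0.98, edgeR adjusted p = 0.143), and DESeq2 called it (adjusted p = 0.0133). BLNK, a B cell adaptor, had -0.58 (edgeR adjusted p = 0.672), and EBF1 had 8.85 ± 2.93 CPM in knock-down and 7.85 ± 1.54 CPM in control libraries (edgeR adjusted p = 0.768).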

How the data were processed

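The authors deposited 1 table of raw read counts per gene for 12 SK-ES1 xenograft libraries, with no normalisation, and the exon length of each gene. The submitters' processing notes name FastQC, STAR 2.6.0a, featureCounts, limma 3.40.2, R 3.6.0 and the build hg38. Libraries were made from total RNA with a stranded poly(A) kit, per the labels' protocols. The sources used here do not give the strand setting, multi-mapping rules or removal of host reads.

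Counts were analysed in R 4.3.3. edgeR 4.0.16 (filterByExpr with a minimum count of 10, TMM factors of 0.921 to 1.04, robust quasi-likelihood F test, no covariate) was fitted to all 16519 genes kept, which hold at least 99.72% of the counts, with Benjamini-Hochberg adjustment over all of them and a threshold of 0.05. The method was checked on simulated counts. CPM values are TMM-scaled, log2 CPM has a prior count of 2, and for single values a two-sided exact permutation test over all divisions into 6 and 6 was run. Each correlation had 100000 permutations. For counting error only, a count of 0 allows at most 3 counts, 0.112 to 0.126 CPM per library. Within groups the lowest chi-square per degree of freedom between 2 libraries was 12.05, so none repeats another.

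The members and gene lists were chosen with earlier results of these data known. Named genes were RNF2, the PAX genes, the 5 most similar genes of each PAX gene above 1 CPM, the 4 list members with the smallest p and any called one, and the neighbours; others are said to be so. Some list members, and the calls that rest on them, are not reported here. Alternatives were RLE factors, library size alone, other low-count filters, DESeq2 1.42.0, limma-voom 3.58.1, the title number (random effect or summed), the title letter, a threshold of 0.01, a prior count of 0.5 and each library left out.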

Additional observations from a re-analysis of the deposited data

Results flagged for a closer look

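In groups of 6 libraries, values whose gap to the nearest other library exceeded 0.625 of the group's range are listed here. Of 66 combinations of gene and group examined 5 did so. For normally distributed values chance alone gives about 1 in 20. That rate does not hold for genes with few counts, such as PAX2 and PAX5. PAX5 had 10.4 CPM in knockdown 4, against at most 0.169 CPM in the other knock-down libraries, and 0.228 CPM in control 2, against at most 0.0741 CPM in the other controls, which is 6 counts. PAX2 had 0.0399 CPM in control 3, which is 1 count, and 0 in the other controls. PAX6 had 9.67 CPM in control 6, against 15.2 to 16.7 CPM in the other controls. Control 6 also had the highest mitochondrial share (14.4%) and the lowest PAX8 value (4.48 CPM), and their part in the PAX6 value was not tested. FOXE1 had 4.59 CPM in knockdown 5, against 2.88 to 3.49 CPM in the other knock-down libraries.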

How the results depend on the processing

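In each of the 22 alternatives 0 PAX genes were called, and RNF2 stayed past the threshold (log2 fold change -1.53 to -1.35 over libraries left out). The log2 fold changes of PAX7 (0.24 to 0.51), PAX9 (0.01 to 0.19), PAX3 (-0.24 to -0.15) and PAX1 (-0.21 to -0.0005) kept their sign without each library in turn. The log2 fold change of PAX8, 0.01, turned to -0.003 with RLE factors, -0.01 with library size alone, -0.004 without a low-count filter and -0.004 with DESeq2, and ranged from -0.06 to 0.04 over libraries left out. PAX6 was 0.04 with the title letter as a covariate and ranged from -0.15 to 0.06 over libraries left out. The difference of mean log2 CPM ranged from -0.22 to 0.01 for PAX1, from -0.18 to 0.03 for PAX6 and from -0.06 to 0.05 for PAX8 over libraries left out. The cause of these turns was not tested. The number of all genes called, 49, was 351 with DESeq2, 91 with the title number as a random effect (consensus correlation -0.125), 28 with the title letter as a covariate, 7 with counts summed by title number, where fewer samples entered the fit, 3 at an adjusted p of 0.01, and 16 to 79 over libraries left out (16 without control 3 or knockdown 1, 79 without knockdown 4). No paired analysis was possible because no title number occurs in both groups.

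Depth limits PAX2, PAX4 and, outside knockdown 4, PAX5, whose counts were too few for any comparison. The labels do not say whether libraries are separate tumours, or what the title numbers and letters mark. No source used here says how reads of the host were handled. The group sizes leave changes within the intervals given above unresolved.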
